A study of Mus musculus with 2 samples.

Results

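Newborn migrating excitatory neurons of the late embryonic mouse cortex were described in 1 single-cell RNA-seq library taken at embryonic day 18 (E18). A cell belonged to them when it held 3 or more UMIs, that is counted RNA molecules, of Neurod2 and Neurod6 together, transcription factor genes of cortical excitatory neurons, and 4 or more UMIs summed over Sema3c, Unc5d, Sstr2 and Neurod1. It also held at most 1 UMI of Eomes, the T-box factor of intermediate progenitors, at most 1 detected gene among 6 layer genes (Tle4, Hs3st4, Fezf2, Rorb, Inhba and Etv1), and fewer than 3 detected genes among 6 cycling genes (Mki67, Top2a, Cenpf, Birc5, Ube2c and Cdk1). These limits were met by 378 of the 2006 E18 cells with 3 or more Neurod2 and Neurod6 UMIs, a share of 18.8% (95% Clopper-Pearson interval 17.2 to 20.6). They made up 14.4% (13.0 to 15.8) of the 2631 E18 cells that passed the cell filter. The series as a whole held 5073 such filtered cells in 5700 barcodes.

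The study followed the dorsal ventricular-subventricular zone (V-SVZ), the germinal layer beside the lateral ventricles, through the days around birth. The E18 library came from CD1 mice, an outbred stock, and held the tissue above the lateral ventricles in front of the hippocampus, with cortex and dorsal V-SVZ together. The library of postnatal day 2 (P2) came from Emx1Cre;R26Eyfpfl/fl mice, in which Cre driven by Emx1, a gene of the cortical primordium, switches on EYFP in cortically derived cells, and held V-SVZ of the dorsal and lateral walls without the cortex. The tissue of both was dissociated with papain, and living cells were sorted by their lack of propidium iodide and their stain with the nuclear dye DRAQ5. The number of animals behind each library, and whether they were pooled, was not given in the sources used here. Each age had 1 library, so age, dissection, mouse line and library cannot be told apart, and no test over samples could be run.

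Excitatory neurons of the cortex arise from radial precursors, mostly by way of Eomes-expressing intermediate progenitors, and leave the ventricular surface. They pause in the subventricular and intermediate zones with several short processes, the multipolar stage, and then turn bipolar and climb along radial fibres to the cortical plate. Unc5d, a receptor of the netrin receptor family, and Sema3c, a secreted guidance protein of the semaphorin family, are known from this multipolar stage. Sstr2 is a receptor for somatostatin, and Neurod1 is a basic helix-loop-helix transcription factor that follows Neurog2 in excitatory neurogenesis.

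The E18 library had 19986915 UMIs in 2922 barcodes, of which 291 were removed, and shared 0 barcodes with the P2 library of 42572208 UMIs in 2778 barcodes. The 378 newborn neurons had a median of 5430 UMIs and 2310.5 genes, and the other 1628 Neurod2 or Neurod6 cells a median of 7495.5 UMIs and 2733.5 genes. Those 1628 fell, by the same counts, into 1069 low-marker neurons (marker sum of 3 or less and at most 1 layer gene, median 7133 UMIs), 441 layer-marked neurons (2 or more layer genes, median 9125 UMIs), 115 Eomes-positive neurons (2 or more Eomes UMIs, median 5789 UMIs) and 3 cycling cells. A further 38 cells with 2 or more Eomes UMIs and fewer than 3 of Neurod2 and Neurod6 are called Eomes progenitors. Mitochondrial transcripts made up a median of 2.82% of UMIs in newborn neurons and 3.31% in the other Neurod2 or Neurod6 cells. After every cell was thinned to 3000 UMIs, which left out 9 newborn, 31 low-marker and 1 layer-marked cell, the median number of genes was 1548 in newborn, 1487 in low-marker and 1475 in layer-marked neurons.

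Levels below are UMIs summed over the cells of a group and divided by all UMIs of that group (CPM, UMIs of the gene for each 1e6 UMIs of the group). They are compared between groups of cells for 1 gene at a time and not between genes. All intervals are 95%, cover counting error only and treat the UMIs of a group as 1 pool. Since cells were chosen by their own counts within 1 library, a comparison of newborn neurons with other cells describes those cells and carries no p-value.

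The values that chose the cells came first. Sema3c stood at 459 CPM in newborn neurons (430.5 to 489), with a UMI in 88.6% of them, against 36.6 CPM in low-marker and 32.8 CPM in layer-marked neurons. Unc5d stood at 407 CPM (381 to 435) and in 87.6% of newborn neurons, against 51.5 and 17.7 CPM. Both were thus found in nearly all of the cells. Sstr2 was present in 46.8% of newborn neurons at 190.2 CPM (172 to 209.7), and Eomes-positive neurons held more of it, 369 CPM. Neurod1 was present in 36.2% at 114 CPM (100.1 to 129), again below the 171 CPM of Eomes-positive neurons.

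**Figure D1:**
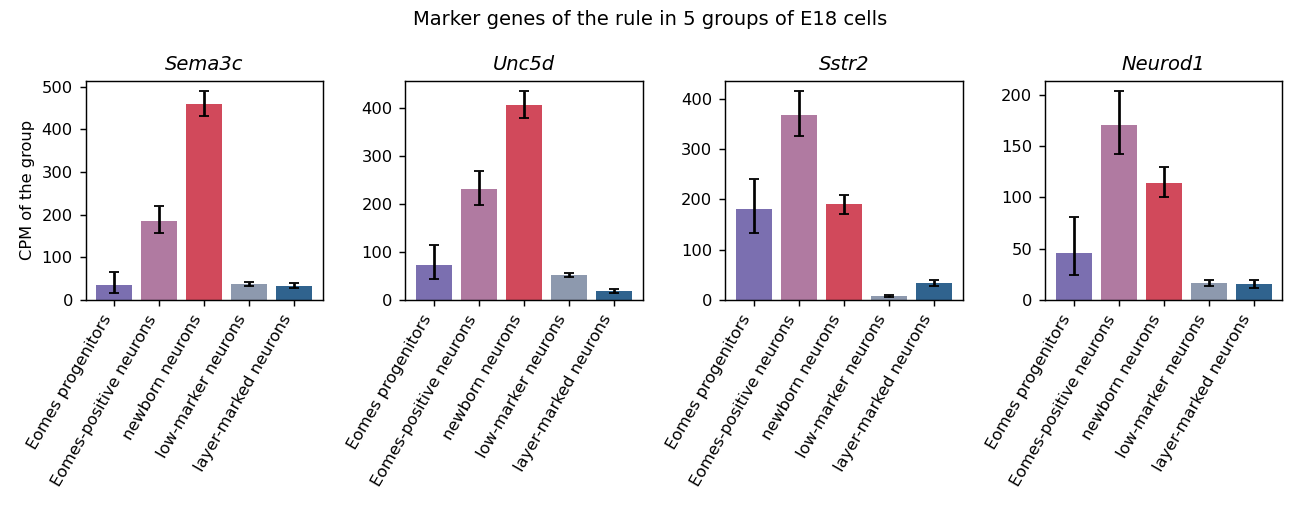
Level of the 4 marker genes (CPM, UMIs of the gene scaled to the depth of the group) in 5 groups of E18 cells, with bars from 0 and 95% Poisson intervals that cover counting error only. Sema3c and Unc5d reach 459 and 407 CPM in newborn neurons, while Sstr2 and Neurod1 are higher in Eomes-positive neurons. These counts took part in choosing the cells.

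The 4 genes were rarely all present in 1 cell. All 4 were detected in 54 newborn neurons, 3 in 146, 2 in 148 and 1 in 30. The most frequent set was Sema3c with Unc5d alone, in 113 cells (29.9%). Sema3c, Unc5d and Sstr2 followed in 81 cells (21.4%), and Sema3c, Unc5d and Neurod1 were the set of 44 cells (11.6%). The marker sum had a median of 6 and a highest value of 17. Just inside the limit, 88 cells had a sum of 4, with a median depth of 5611 UMIs. Just outside it, 113 low-marker neurons had a sum of 3, with a median depth of 5897 UMIs. A single Eomes UMI was held by 58 newborn neurons, a single layer gene by 84, and 345 had no cycling gene. Among the layer genes Hs3st4, a corticothalamic neuron gene, was at 0 and Fezf2, a factor of deep-layer neurons, was at 21.3 CPM.

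The label was checked against other genes of excitatory neurons, which the rule did not use. Tbr1, a T-box factor of newly made excitatory neurons, stood at 148 CPM and was found in 50.8% of newborn neurons (35.0% at 3000 UMIs). In the 481 E18 cells without any Neurod2 or Neurod6 UMI, which had a median of 5324 UMIs, it was found in 2.49% (1.18% at 3000 UMIs). Slc17a6, the vesicular glutamate transporter VGLUT2, was found in 33.3% of newborn neurons and in 1.04% of those other cells. Dcx, the microtubule protein doublecortin of migrating and young neurons, was found in 86.5% of newborn neurons (67.5% at 3000 UMIs), but also in 55.3% of the cells without Neurod2 or Neurod6. The RNA of these cells was thus that of excitatory neurons. No measurement here showed movement, so "migrating" rests on the marker genes.

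Markers of other cell types were then read in the 378 cells. The GABA-making enzymes Gad1 and Gad2 were at 0, against a UMI in 31.0% and 32.8% of the cells without Neurod2 or Neurod6, which allows a share of up to 0.794% of newborn neurons with a UMI and sets no limit on cells that express the genes. All 15 inhibitory neuron markers together gave 29.3 CPM in newborn neurons, 22.5 CPM in the other Neurod2 or Neurod6 cells and 1876 CPM in cells without Neurod2 or Neurod6. The 15 radial precursor markers gave 977 CPM, against 577 and 12425 CPM. Microglia markers gave 3.78 CPM and oligodendrocyte precursor markers 43.5 CPM, both below the 21.2 and 138 CPM of the other Neurod2 or Neurod6 cells. At least 3 inhibitory markers were held by 1 newborn neuron. At least 3 radial precursor markers were held by 140 of 378 newborn neurons, 554 of the 1628 other Neurod2 or Neurod6 cells and 244 of 481 cells without Neurod2 or Neurod6, and 2 newborn neurons held 8 or more.

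On genes outside the rule the cells lay near each other. When E18 cells were clustered without the rule genes, 17 clusters formed, and 92.1% of newborn neurons fell into 4 of them. One cluster of 191 cells held 134 newborn and 52 low-marker neurons. Another, of 202 cells, held 92 newborn and 77 Eomes-positive neurons, and the next, of 372 cells, held 84 newborn and 275 low-marker neurons. The last of the 4 had 65 cells, 38 of them newborn neurons. Among the 14 nearest neighbours of a newborn neuron a mean of 55.3% were newborn neurons, where they made up 14.4% of all cells and 18.8% of Neurod2 or Neurod6 cells. This share was 22.4% around Eomes-positive, 10.6% around low-marker and 4.29% around layer-marked neurons, and 17 newborn neurons had no neighbour of their own group.

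Promoter sequence of 4 genes is shown here because they chose the cells or differed between newborn neurons and the other Neurod2 or Neurod6 cells. Neurod6 was part of the rule, Pcp4 and Pdzrn3 were among the genes higher in them, and Npy was the gene farthest below the others. Each line holds the 250 bases before the annotated start of the gene, from RefSeq on GRCm38.p6, 5′ to 3′ on the strand of the gene, with E-boxes (CANNTG, the letters bound by basic helix-loop-helix factors such as the Neurod proteins) in capitals.
Neurod6, chr6:55681264-55681513, minus strand: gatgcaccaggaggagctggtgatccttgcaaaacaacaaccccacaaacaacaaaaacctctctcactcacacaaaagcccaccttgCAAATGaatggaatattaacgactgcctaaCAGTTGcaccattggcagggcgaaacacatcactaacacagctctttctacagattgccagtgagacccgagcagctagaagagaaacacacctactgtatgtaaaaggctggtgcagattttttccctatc
Pcp4, chr16:96467356-96467605, plus strand: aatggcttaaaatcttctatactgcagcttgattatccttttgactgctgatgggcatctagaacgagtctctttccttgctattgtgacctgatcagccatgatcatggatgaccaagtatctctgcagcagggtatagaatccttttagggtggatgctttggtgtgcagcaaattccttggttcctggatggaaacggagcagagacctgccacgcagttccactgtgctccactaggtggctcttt
Pdzrn3, chr6:101377898-101378147, minus strand: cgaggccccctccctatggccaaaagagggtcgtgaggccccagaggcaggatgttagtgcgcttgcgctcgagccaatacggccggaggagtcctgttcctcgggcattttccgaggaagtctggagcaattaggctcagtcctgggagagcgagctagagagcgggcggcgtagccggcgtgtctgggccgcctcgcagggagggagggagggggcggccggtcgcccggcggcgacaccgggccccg
Npy, chr6:49822460-49822709, plus strand: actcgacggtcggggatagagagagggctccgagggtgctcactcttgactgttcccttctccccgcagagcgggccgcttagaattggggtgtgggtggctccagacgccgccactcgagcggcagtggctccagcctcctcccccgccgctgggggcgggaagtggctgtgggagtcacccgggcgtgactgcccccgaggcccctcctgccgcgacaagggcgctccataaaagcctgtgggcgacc
The Neurod6 window held 2 E-boxes, CAAATG and CAGTTG, and the other windows held 0. The pattern reads the same on both strands, and 66.2% of all 32851 promoter windows of this length held it. Among the 12 genes named below as higher, 7 had a window and 3 of these held an E-box. Of the genes named as lower, 8 had windows that were read, 16 in all, and 5 of these 8 genes held an E-box in at least 1 window. Over all 27025 genes with a window the share was 69.3%. These are matches of letters, not sites of binding.

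Against all other Neurod2 or Neurod6 cells, newborn neurons held more RNA of the adhesion gene Cdh4, the transcription factor genes Zbtb20 and Meis2, and Rnd2. Rnd2, a small GTPase that radially migrating neurons need in the mouse cortex, stood at 215 CPM in newborn neurons and 38.7 CPM in the others. Mef2c, a transcription factor of maturing neurons, the neuropeptide gene Npy and the long noncoding RNA Meg3 were far lower. Of 3327 genes with 50 or more CPM in 1 of the groups, 107 (3.22%) were at least 2-fold higher and 154 (4.63%) at least 2-fold lower in newborn neurons. Scaling by the median of gene ratios, which lowers every log2 ratio by 0.18, turned this split into 69 higher and 186 lower. Within cells of 3000 to 8000 UMIs, a range chosen after seeing the depths, which held 347 of the newborn neurons among 1242 cells, 33 genes were higher and 74 lower. The genes with 50 or more CPM were picked anew in those cells, so 33 and 74 are not shares of the 3327 genes. The 12 genes named on each side kept their side in the range of 3000 to 8000 UMIs, and the part that depth plays in the counts was not tested.

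Rnd2 and Cdh4 led the higher side. Rnd2 had 454 UMIs in newborn neurons and 524 in the other Neurod2 or Neurod6 cells, a log2 ratio of 2.47 (2.29 to 2.66). It was found in 50.3% of newborn neurons and 18.6% of the others, or 38.5% and 10.8% at 3000 UMIs, and in 10.8% of cells without Neurod2 or Neurod6. Cdh4, the adhesion protein R-cadherin, stood at 98.4 and 17.2 CPM, a log2 ratio of 2.52 (2.24 to 2.79). Both were higher in newborn than in low-marker and in layer-marked neurons, but Rnd2 was higher still, at 306 CPM, in Eomes-positive neurons. Pdzrn3, a ubiquitin ligase with PDZ domains, stood at 81.4 and 16.4 CPM, a log2 ratio of 2.31 (2.02 to 2.61). Nrn1, the membrane-anchored neurite growth protein neuritin, stood at 128 and 32.3 CPM, a log2 ratio of 1.98 (1.76 to 2.20). Dpy19l1, which radial migration of mouse cortical neurons is known to need, had a log2 ratio of 2.00 (1.68 to 2.31).

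The other genes named as higher had varied roles. Zbtb20, a zinc finger repressor of hippocampal and cortical neurons, stood at 749 CPM in newborn neurons and 198 CPM in the others, a log2 ratio of 1.92 (1.83 to 2.01). It was found in 91.5% of newborn neurons, but also in 69.0% of cells without Neurod2 or Neurod6, at 439 CPM. In Eomes progenitors it stood higher, at 899 CPM (787 to 1022). Meis2, a homeobox factor of the TALE class, stood at 1128 and 342 CPM, a log2 ratio of 1.72 (1.65 to 1.79). With a median of 6 UMIs per cell and a UMI in 97.6% of cells, Meis2 was a general feature of newborn neurons. Pcp4, a small protein that binds calmodulin, stood at 358 and 85.0 CPM, a log2 ratio of 2.07 (1.94 to 2.21), and was found in 49.7% and 17.3% of cells. Calb2, the calcium buffer calretinin, behaved otherwise. Its log2 ratio was 2.19 (1.93 to 2.45) at 100.3 and 22.0 CPM, but 19 cells held 86.3% of its UMIs and 35 cells held all of them. Without Sema3c in the marker sum the ratio of Calb2 was -0.051. Galnt17, Plekhf2 and Tmem178, a glycosyltransferase family member, an endosomal protein and a membrane protein, had log2 ratios of 1.93, 1.97 and 1.95. Nrn1 and Plekhf2 were found in 64.3% and 57.4% of Eomes-positive neurons, more than the 42.1% and 37.6% of newborn neurons. Zbtb20 and Meis2 were found there in 97.4% and 100%, and Tmem178 was near equal (31.3% and 29.4%). Cdh4, Pdzrn3, Calb2, Galnt17 and Dpy19l1 were found in a smaller share of Eomes-positive than of newborn neurons.

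**Figure D2:**
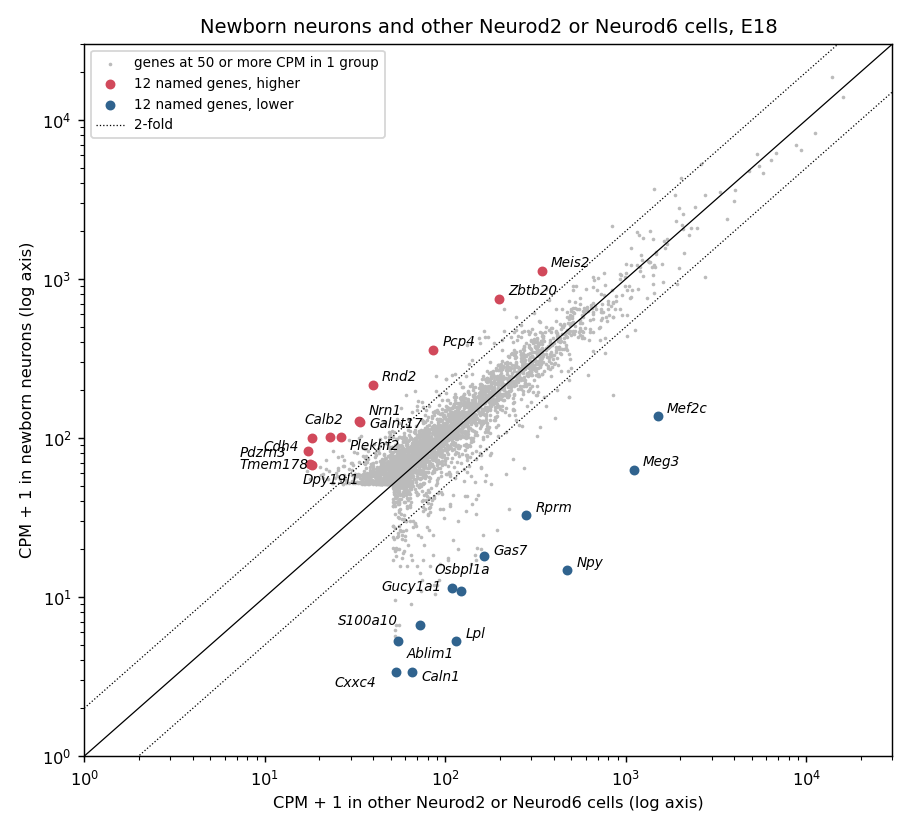
Level of each gene with 50 or more CPM in 1 group (CPM + 1, both axes log) in newborn neurons against the other E18 Neurod2 or Neurod6 cells. The solid line marks equal levels and dotted lines a 2-fold difference; the 12 genes named as higher and the 12 named as lower lie beyond the dotted lines.

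The lower side was led by Npy and Meg3. Npy, neuropeptide Y, had 29 UMIs in newborn neurons (13.7 CPM) and 6420 in the others (474 CPM), a log2 ratio of -5.11 (-5.69 to -4.59). It was found in 6.88% of newborn neurons and in 17.05% of cells without Neurod2 or Neurod6, so a smaller share of newborn neurons than of those other cells held it. Mef2c stood at 136 and 1509 CPM, a log2 ratio of -3.47 (-3.64 to -3.30), and was found in 27.2% and 79.1% of cells. In newborn neurons 19 cells held 61.8% of the Mef2c UMIs, with up to 64 in 1 cell. Meg3, an imprinted long noncoding RNA, stood at 62.0 and 1106 CPM, a log2 ratio of -4.16 (-4.42 to -3.91), and 19 cells held 77.9% of its UMIs. Most newborn neurons thus held no UMI of these 3 genes, and a few held many of Mef2c and Meg3.

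The other 9 genes named as lower had varied roles. Lpl, lipoprotein lipase, had 9 UMIs in newborn neurons and 1549 in the others, a log2 ratio of -4.75 (-5.88 to -3.82). Caln1, the calcium sensor calneuron, had 5 and 877 UMIs (-4.77 (-6.40 to -3.55)), and Cxxc4, an inhibitor of Wnt signalling, 5 and 708 (-4.47 (-6.09 to -3.24)). All 3 were thus near absent from newborn neurons. Gucy1a1, a subunit of the nitric oxide receptor guanylate cyclase, had a log2 ratio of -3.60 (-4.30 to -2.98). S100a10, the partner protein of annexin A2 and a gene of deep-layer neurons, had one of -3.66 (-4.62 to -2.85). Rprm, reprimo, an inhibitor of the cell cycle, stood at 31.7 and 281 CPM (-3.15 (-3.52 to -2.80)). The actin-linked genes Gas7 and Ablim1 had ratios of -3.26 and -3.66, and the oxysterol-binding protein gene Osbpl1a one of -3.38.

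Genes outside the rule could also be read across the marker sum. All genes below but Nrp1 were named because newborn neurons differed in them from the other Neurod2 or Neurod6 cells, most of them low-marker. A rise or fall across the limit was thus largely set by that choice of genes and is no further support. Rnd2 stood at 13.9 CPM in the 535 low-marker neurons with a sum of 0, at 92.4 CPM (71.1 to 118) at a sum of 3, at 113 CPM (85.6 to 146) at 4 and at 319.9 CPM in the 107 cells with 8 or more. Pcp4 went from 10.3 CPM at 0 through 113 at 3 and 152 at 4 to 541 CPM at 8 or more. Neither gene stepped at the limit of 4. Mef2c went the other way, from 1909 CPM at 0 through 413 at 3 and 181 at 4 to 37.9 CPM at 8 or more. Npy stood at 421, 283 and 72.8 CPM at sums of 0, 1 and 2, and was already down to 8.66 CPM at 3, outside the limit. Meg3 went from 673 CPM at 0 through 169 at 3 to 23.3 CPM (12.1 to 40.7) at 4, but within the newborn neurons it was higher at 8 or more, at 104 CPM (79.8 to 133). The share of cells with a Meg3 UMI was 12.5% at 4 and 14.0% at 8 or more, and 19 newborn neurons held 77.9% of their Meg3 UMIs. Nrp1, neuropilin 1, a receptor for class 3 semaphorins, showed no such slope above the limit, with 264 CPM at 4 and 262 CPM at 8 or more. The median depth of cells went along with the sum, from 7951 UMIs at 0 to 5295 UMIs at 8 or more, and its part in these values was not tested.

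**Figure D3:**
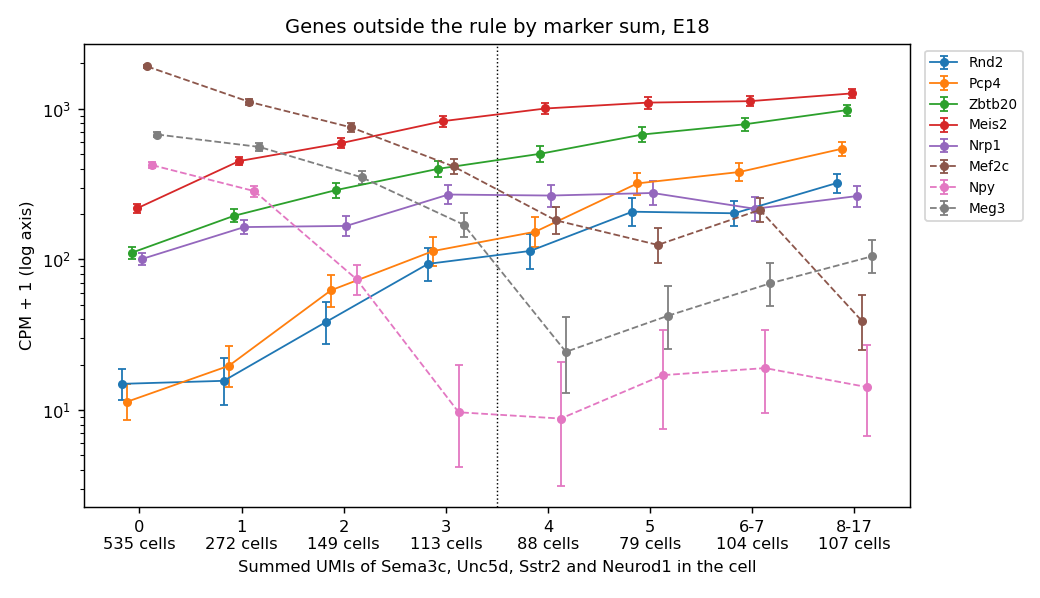
Level of 8 genes that took no part in the rule (CPM + 1, log axis) in E18 neurons grouped by the summed UMIs of Sema3c, Unc5d, Sstr2 and Neurod1; points are groups of 79 to 535 cells with 95% Poisson intervals, and the dotted line is the limit between low-marker and newborn neurons. All but Nrp1 were named for their difference between newborn neurons and the other Neurod2 or Neurod6 cells, which largely sets their course across the limit. Rnd2, Pcp4, Zbtb20 and Meis2 are higher at 3 than at 0 and higher at 8 or more than at 4. Mef2c, Npy and Meg3 are lower at 4 than at 0, while above the limit Meg3 goes from 23.3 to 104 CPM and Npy from 7.77 to 13.2 CPM. Of the newborn neurons, 19 hold 77.9% of their Meg3 UMIs.

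Gene lists of known roles were then read as counts of genes with 10 or more UMIs over both groups. Against the other Neurod2 or Neurod6 cells, 11384 genes passed that limit, of which 5.95% were at least 2-fold higher and 10.9% at least 2-fold lower in newborn neurons, with a median log2 ratio of 0.11. Among 24 genes of migration and the cytoskeleton of migrating neurons, 3 were at least 2-fold higher and 1 at least 2-fold lower, with a median of 0.00. Rnd2, Nrn1 and Lrp8 were the 3 higher ones. Lrp8, a receptor for the migration signal reelin, stood at 99.8 and 45.4 CPM (1.14 (0.90 to 1.36)). The other reelin receptor, Vldlr, stood lower, at 11.8 and 27.4 CPM (-1.21 (-1.86 to -0.63)), as did Dab1, the adaptor both receptors use, at 139 and 242 CPM (-0.80 (-0.98 to -0.63)). Dcx stood at 393 and 306 CPM (0.36 (0.25 to 0.47)), within 2-fold.

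Guidance and adhesion genes went both ways. Of 36 measured, 7 were at least 2-fold higher and 7 at least 2-fold lower, with a median of -0.18. The higher ones included receptors of class 3 semaphorins: Nrp1 at 253 and 113 CPM (1.17 (1.02 to 1.31)), and Nrp2, its relative, with a ratio of 1.94 (0.91 to 2.92). Epha5, an ephrin receptor, stood at 432 and 171 CPM (1.33 (1.22 to 1.45)). The membrane-bound semaphorin Sema5a had a ratio of 2.30 (1.80 to 2.79) and the secreted repellent Slit2 one of 1.92 (1.21 to 2.61). On the lower side stood the cadherin Cdh13 (-3.44 (-4.51 to -2.55)), the adhesion protein Cntn1 (-2.49 (-3.41 to -1.70)) and the ephrin Efna5 (-2.21 (-3.18 to -1.39)). Unc5c, which belongs to the same receptor family as the marker Unc5d, was lower, at 1.42 and 11.8 CPM (-3.06 (-5.35 to -1.48)).

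Factors of excitatory neurogenesis leaned to the higher side. Of 21 measured, 5 were at least 2-fold higher and 0 at least 2-fold lower, with a median of 0.57. Insm1, a zinc finger factor of intermediate progenitors, stood at 385 and 130.4 CPM (1.56 (1.44 to 1.68)). Sox11, a SoxC factor that turns on neuronal genes, stood at 4340.5 and 2031 CPM (1.10 (1.06 to 1.13)). The helix-loop-helix genes Nhlh1 and Nhlh2 had ratios of 2.10 and 1.62, and Cbfa2t2, a corepressor, one of 1.34. Neurog2, the proneural factor upstream of them, was within 2-fold, at 52.5 and 39.4 CPM (0.41 (0.11 to 0.71)). Of the 15 radial precursor markers, 3 were at least 2-fold higher and 0 lower, with a median of 0.49, which was -0.05 without the cells of the highest doublet scores and 0.04 in cells of 3000 to 8000 UMIs. Fabp7, the fatty acid carrier of radial precursors, was 1 of the 3, with a ratio of 1.48 (1.37 to 1.60), and 19 newborn neurons held 42.1% of its UMIs, up to 222 in 1 cell.

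Upper-layer and deep-layer genes both had medians below that of all genes. Of 18 upper-layer and callosal genes, 2 were at least 2-fold higher and 5 at least 2-fold lower, with a median of -0.66. The higher pair were the homeobox factor Lhx2, at 472 and 163 CPM (1.53 (1.42 to 1.64)), and the POU factor Pou3f2, at 578 and 246 CPM (1.23 (1.13 to 1.32)). Lmo4, a LIM-domain cofactor, was among the lower ones and had a ratio of -1.42 (-1.58 to -1.27). Of 19 deep-layer and corticofugal genes, 12 were at least 2-fold lower and 3 higher, with a median of -1.71. Foxp1, a forkhead factor, stood at 25.5 and 191 CPM (-2.90 (-3.32 to -2.52)), while Bcl11b (CTIP2), a factor of subcerebral neurons, was within 2-fold at 0.14 (-0.11 to 0.39). The 3 higher ones were the nuclear factor genes Nfia (1.16) and Nfib (1.36) and the growth factor binding protein gene Igfbp4 (1.13). Having 2 or more layer genes barred a cell from the newborn neurons, so low deep-layer counts were partly set by the choice of cells. Of 8 subplate genes, 0 were at least 2-fold higher and 3 lower, with a median of -0.52.

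Genes of mature neuronal function were mostly lower. Of 20 genes of axon growth and neurofilaments, 0 were at least 2-fold higher and 7 lower, with a median of -0.66. Gap43, the growth cone protein, stood at 186 and 851 CPM (-2.19 (-2.34 to -2.05)), and Stmn2, which binds tubulin in growing neurites, at 1028 and 2749.6 CPM (-1.42 (-1.48 to -1.36)). The neurofilament gene Nefm had a ratio of -3.01 (-4.65 to -1.77). Of 22 synaptic vesicle and release genes, 1 was at least 2-fold higher and 7 lower, with a median of -0.58. The higher one was Slc17a6, at 71.4 and 21.0 CPM (1.77 (1.47 to 2.06)), and the calcium sensor of release Syt1 was lower, at 11.8 and 91.0 CPM (-2.94 (-3.58 to -2.38)). The other vesicular glutamate transporter, Slc17a7, had a ratio of -1.37 (-2.46 to -0.46).

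Receptor and channel genes showed the lowest medians apart from the deep-layer list and the markers of other cell types. Of 23 genes of glutamate and GABA receptors and chloride transporters, 0 were at least 2-fold higher and 14 lower, with a median of -1.51. The AMPA receptor gene Gria2 was within 2-fold on the higher side, at 860.1 and 602 CPM (0.51 (0.44 to 0.59)). The NMDA receptor gene Grin2b was lower, at 116 and 332 CPM (-1.51 (-1.70 to -1.33)), as was the GABA receptor gene Gabra5 (-3.35 (-4.81 to -2.22)). Of 21 ion channel genes, 1 was at least 2-fold higher and 10 lower, with a median of -0.82. The leak potassium channel Kcnk2 was the higher one (1.22 (1.03 to 1.40)), and the sodium channel gene Scn2a was among the lower ones (-2.47 (-3.03 to -1.95)). Of 18 genes of calcium and activity signalling, 1 was at least 2-fold higher and 7 lower, with a median of -0.35, Calb2 being the higher one. Of 15 genes of steroid, growth factor and peptide signalling, 4 were higher and 5 lower, with a median of -0.40. Pcp4, Igfbpl1 (1.37 (1.33 to 1.41)), Fgfr1 (1.16) and Wnt7b (1.11) were the 4 higher ones.

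Genes of general metabolism differed little. Of 15 glycolysis genes, 1 was at least 2-fold higher and 0 lower, with a median of 0.01. None of 17 oxidative phosphorylation genes and none of 18 ribosomal protein genes were 2-fold apart, with medians of -0.17 for both. Of 15 genes of dissociation stress, 0 were higher and 1 lower, with a median of 0.13. Scaling by the median of gene ratios turned the medians of the migration, stress and glycolysis lists to -0.18, -0.05 and -0.17.

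**Figure D4:**
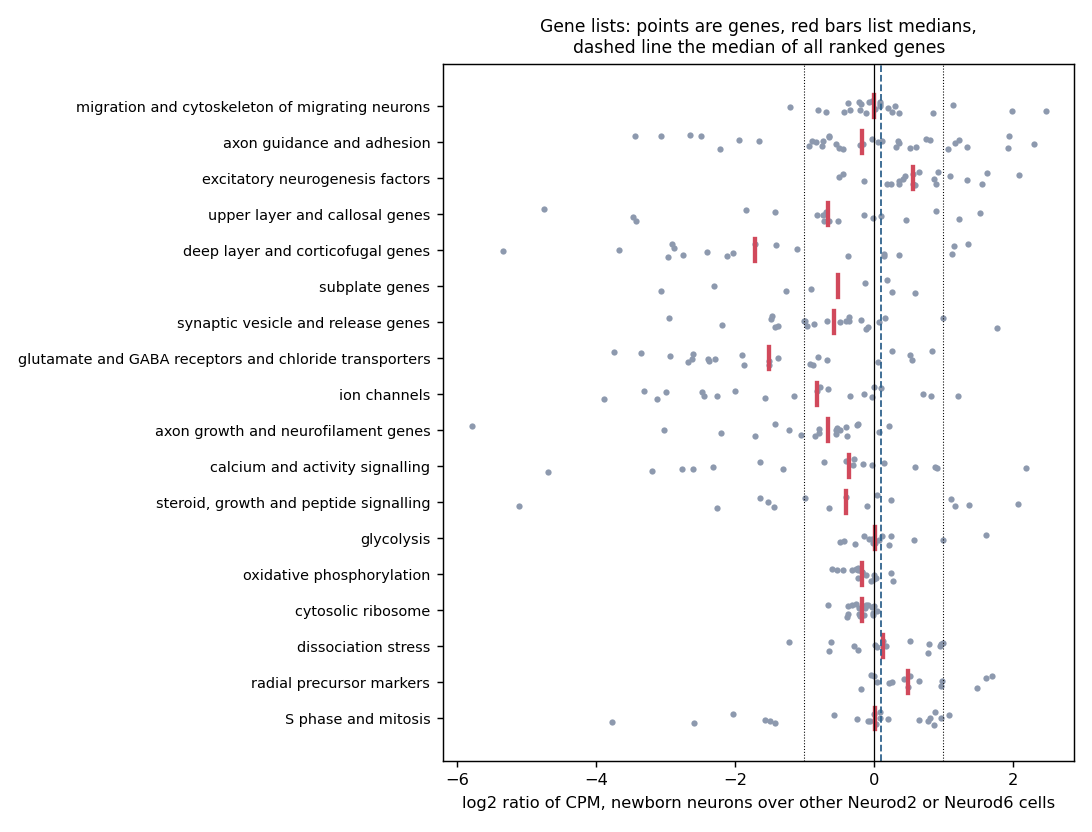
Log2 ratio of CPM between newborn neurons and the other E18 Neurod2 or Neurod6 cells for the measured genes of 18 lists. Points are genes, red bars list medians, the dashed line is the median of all ranked genes (0.11) and dotted lines mark 2-fold; medians range from -1.71 for deep-layer genes to 0.57 for neurogenesis factors.

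Low-marker neurons, which like newborn neurons carried at most 1 layer gene, differed from them by the marker sum. Newborn neurons were at least 2-fold higher for 108 of 3304 genes (3.27%) and at least 2-fold lower for 111 (3.36%). Pcp4 stood at 358 and 27.5 CPM (3.70 (3.48 to 3.92)), and Rnd2 at 215 and 23.7 CPM (3.18 (2.93 to 3.43)). Mfap4, an extracellular matrix protein, had a ratio of 3.19 (2.71 to 3.69), the kinase gene Cdk6 one of 3.02 (2.58 to 3.47) and Rasgef1b, a Ras exchange factor, one of 3.13 (2.67 to 3.61). Npy, Lpl, Mef2c and Meg3 were again on the lower side, at -4.49, -4.38, -3.40 and -3.18. With them stood Ntf3, the growth factor neurotrophin 3, at 2.37 and 52.1 CPM (-4.46 (-6.09 to -3.23)). By the limit of 10 UMIs, 7.14% of 10861 genes were at least 2-fold higher and 8.58% lower, with a median of 0.12. Of 21 neurogenesis factors, 10 were higher and 0 lower, with a median of 0.93. Of 14 radial precursor markers, 9 were higher and 0 lower, with a median of 1.42, and Pax6, a factor of radial precursors, stood at 54.4 and 9.66 CPM. Yet 19 newborn neurons held 51.3% of the Pax6, 57.7% of the Mfap4 and 50% of the Cdk6 UMIs. At least 3 radial precursor markers were held by 140 of 378 newborn and 324 of 1069 low-marker neurons. The median without the highest doublet scores was not read in this comparison. Deep-layer genes had a median of 0.03 in this comparison, with 5 of 19 higher and 7 lower, and Bcl11b was higher here (2.46 (2.10 to 2.82)).

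Layer-marked neurons were farther away. Newborn neurons were at least 2-fold higher for 238 of 3444 genes (6.91%) and at least 2-fold lower for 270 (7.84%). Pdzrn3 stood at 81.4 and 2.84 CPM (4.84 (4.03 to 5.78)), and the growth factor midkine, Mdk, at 393 and 47.9 CPM (3.04 (2.82 to 3.26)). Rnd2, Pax6 and Cdh4 had ratios of 3.27, 3.64 and 3.20. On the lower side, Nrgn, neurogranin, had 4 and 560 UMIs (-6.02 (-7.90 to -4.65)), and Nefl, the light neurofilament protein, 1 and 298 UMIs (-7.11 (-12.41 to -4.62)). Npy, Meg3 and Lpl followed at -5.94, -5.18 and -5.39. By the limit of 10 UMIs, 10.1% of 10763 genes were at least 2-fold higher and 13.5% lower, with a median of 0.13. Of 23 receptor and transporter genes 1 was higher and 17 lower, with a median of -2.06, and of 21 neurogenesis factors 9 were higher and 0 lower, with a median of 0.95. Of 14 dissociation stress genes, 7 were higher and 1 lower, with a median of 1.06, and their part in the other differences was not tested.

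Eomes-positive neurons, on the progenitor side, differed in other genes. Newborn neurons were at least 2-fold higher for 198 of 3403 genes (5.82%) and at least 2-fold lower for 131 (3.85%). Nrp1 stood at 253 and 28.3 CPM (3.16 (2.53 to 3.87)), and the GABA receptor gene Gabra2 at 174 and 9.43 CPM (4.20 (3.15 to 5.53)). Both encode receptors, found in 11.3% and 5.22% of Eomes-positive neurons and in 62.4% and 47.4% of newborn neurons. Jakmip1, a microtubule-associated protein, had a ratio of 3.63 (2.63 to 4.86) and Hs6st2, a heparan sulfate sulfotransferase, one of 3.35 (2.58 to 4.23). Calb2 had 212 and 0 UMIs, at least 4.32 on the log2 scale by the exact interval, and 4.63 against a floor of 3 UMIs over the group. The lower side held genes of cell division. The limit on cycling genes was set for newborn and not for Eomes-positive neurons. It set apart 3 Neurod2 or Neurod6 cells with at most 1 Eomes UMI, and its part in these values was not tested. Ccna2, cyclin A2, had 0 and 56 UMIs, and Pbk, Ccnb1, Pclaf and Spc25 had ratios of -7.62, -7.53, -6.11 and -6.42.

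Read by lists, 10.3% of 9577 genes were at least 2-fold higher than in Eomes-positive neurons and 7.74% lower, with a median of 0.08. Axon growth genes were on the higher side for 18 of 18, 7 of them at least 2-fold, with a median of 0.85. Guidance and adhesion genes were at least 2-fold higher for 13 of 32 and lower for 1, with a median of 0.51, and migration genes higher for 4 of 24 and lower for 2, with a median of 0.50. Dab1 stood at 139 and 20.2 CPM (2.78 (2.03 to 3.63)), and the neuronal tubulin gene Tubb3 had a ratio of 1.25 (1.15 to 1.35). Neurogenesis factors were at least 2-fold lower for 9 of 21 and higher for 2, with a median of -0.83. Eomes-positive neurons were chosen by their Eomes count, and its part in these values was not tested. Neurog2 stood at 52.5 and 511 CPM (-3.28 (-3.60 to -2.97)), and Btg2, an antiproliferative gene of neurogenic progenitors, had a ratio of -2.16 (-2.61 to -1.72). The higher pair were Bhlhe22 (2.14) and Prdm8 (2.57), which are known as partners in a repressor complex of cortical neurons. All 18 measured ribosomal protein genes were on the lower side, 0 of them 2-fold, with a median of -0.40.

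Across the 5 groups, newborn neurons stood between the Eomes-positive and the low-marker neurons for some genes and apart from both for others. Neurog2 stood at 1222 CPM in Eomes progenitors, 511 in Eomes-positive, 52.5 in newborn, 14.9 in low-marker and 6.78 CPM in layer-marked neurons. Insm1, in the same order, stood at 834, 485, 385, 142 and 51.8 CPM. Both thus stood lower from each group to the next. The groups were formed by Eomes, the marker sum and layer genes, and how far that set this order was not tested. Nrp1 stood at 0, 28.3, 253, 138 and 82.7 CPM and Pdzrn3 at 0, 5.39, 81.4, 25.1 and 2.84 CPM, so both were highest in newborn neurons. Gria2 was higher in newborn neurons (860.1 CPM) than in Eomes-positive (236), low-marker (712) and layer-marked neurons (470.1). Stmn2 stood at 57.6, 279, 1028, 2607 and 3435 CPM, higher in each group than in the one before. Meg3 stood at 104, 195, 62.0, 561 and 2240.3 CPM. Of the 27 Meg3 UMIs in Eomes progenitors 24 lay in 1 cell, and 10.5% of those cells and 12.7% of newborn neurons held a UMI, so no order of these groups can be read.

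**Figure D5:**
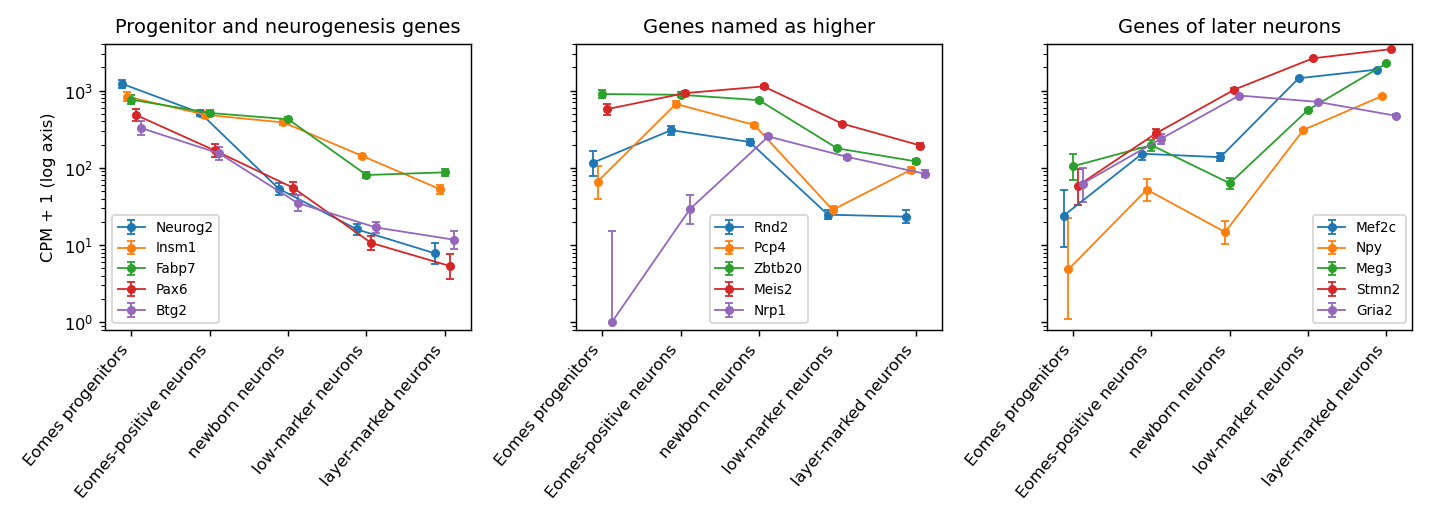
Level of 15 genes (CPM + 1, log axis) in 5 groups of E18 cells, with 95% Poisson intervals that cover counting error only; lines join the groups of 1 gene and do not show a measured time course. Neurog2 and Insm1 stand lower from left to right, Nrp1 is highest in newborn neurons at 253 CPM, and Mef2c and Meg3 are highest in layer-marked neurons.

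Newborn neurons also differed among themselves. Neurod1 was held at 2 or more UMIs by 59 of them and at 0 by 241. Of 3464 genes, 39 (1.13%) were at least 2-fold higher and 30 (0.866%) at least 2-fold lower in the cells with Neurod1. Since Neurod1 counted toward the marker sum, Sema3c, Unc5d and Sstr2 were left out here. Pcp4 stood at 661 CPM with Neurod1 and 258 CPM without (1.36 (1.11 to 1.61)). Cdkn1c, the cell cycle inhibitor p57, had a ratio of 1.25 (0.81 to 1.68), the TGF-beta receptor gene Tgfbr1 one of 1.64 (0.75 to 2.50) and the lipid-binding protein gene Clvs1 one of 1.67 (0.76 to 2.56). Meg3 rested on 34 and 39 UMIs (1.91 (1.20 to 2.61)). In the cells without Neurod1, Pdzrn3 (-1.66 (-2.82 to -0.69)), Gabra2 (-1.28 (-1.92 to -0.70)) and the adhesion protein gene Opcml (-0.99 (-1.44 to -0.56)) were higher. So were Apoe, apolipoprotein E (-2.24 (-4.15 to -0.83)), and Dbi, an acyl-CoA binding protein (-1.28 (-1.92 to -0.70)), but 19 newborn neurons held 75.0% and 57.6% of their UMIs. By the limit of 10 UMIs, 4.04% of 8590 genes were at least 2-fold higher and 7.87% lower, and of 13 radial precursor markers 1 was higher and 7 lower, with a median of -1.0 beside -0.01 for all genes.

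The P2 library gave a reading that took no part in choosing the E18 cells. The same rule was met there by 109 of 256 Neurod2 or Neurod6 cells, with a median of 11900 UMIs. EYFP, which marks cortically derived cells in those mice, was found in 98 of the 109, a share of 89.9% (82.7 to 94.9). In all other P2 cells, with a median of 13157 UMIs, it was found in 840 of 2333 (36.01%, 34.1 to 38.0), and in 662 of the 2080 P2 cells without Neurod2 or Neurod6 (31.8%). The other P2 Neurod2 or Neurod6 cells carried it in 130 of 147 (88.4%, 82.1 to 93.1). Among those 147, the low-marker neurons, of a median of 1716 UMIs, carried it in 2 of 7 (28.6%, 3.67 to 71.0). Eomes progenitors, which had fewer than 3 Neurod2 and Neurod6 UMIs, carried it in 19 of 23 (82.6%, 61.2 to 95.05). Of the 12 genes named as higher at E18, 8 were on the same side in the P2 cells against other P2 Neurod2 or Neurod6 cells, as were 8 of the 12 named as lower. Of these, 4 and 7 were beyond counting error, and 3 and 1 were on the opposite side beyond it. On the same side, Zbtb20 had a ratio of 0.29 (0.23 to 0.36) after 1.92 at E18, and Meis2 one of 0.35 (0.29 to 0.41) after 1.72. These P2 comparison cells were another mixture, with 82 Eomes-positive, 41 layer-marked, 17 cycling and 7 low-marker cells. Against P2 layer-marked neurons alone, 10 of 12 and 10 of 12 were on the same side, 4 and 6 of them beyond counting error, and 1 and 1 (Calb2 and Rprm) were on the opposite side beyond it. Of the same-side genes there, Lpl rested on 0 and 2 UMIs and Osbpl1a had a ratio of -0.04 (-0.86 to 0.80). No share over all genes stands beside these counts of sides, so they do not show how the named genes differ from other genes. Cdh4 was higher in both P2 comparisons, at 0.66 (0.47 to 0.84) and 0.53 (0.27 to 0.79).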

How the data were processed

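Gene expression was measured in single cells of 1 E18 and 1 P2 mouse brain library. The deposited values are raw UMI counts per gene and barcode: Cell Ranger 4.0.0 made the matrices, per the file headers, and the submitters' processing notes name its version 4 and mm10. Deposited gene and barcode lists hold names only, values of the kind other. For library chemistry, aligner settings and cell calling nothing was given in the sources used here, and cell annotation by the authors was not used.

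The cell filter asked for at least 500 genes and at most 10% mitochondrial UMIs. Scrublet's automatic threshold called 7 E18 cells (0.266%), too few for a working call, so none were removed; an alternative left out the 135 cells with the highest scores (5.13%). Groups were formed from raw counts by the rule stated in the report, UMIs were summed per group and scaled by all its UMIs. Intervals are 95%: exact Poisson for sums, Clopper-Pearson for shares and exact conditional for ratios. They cover counting error only. Where a whole group had 0 UMIs of a gene, 3 UMIs stood in as its floor.

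Genes named were the 12 highest and 12 lowest against other Neurod2 or Neurod6 cells, and 5 and 5 in each other comparison, among genes with 50 or more CPM in 1 group, ranked by the interval bound nearest 0. Rule genes, mitochondrial, ribosomal, haemoglobin, sex-linked and unnamed predicted genes were left out, and list members could be named too. The newborn neurons and the 24 gene lists were chosen with earlier results of these data known. Clustering used 30 principal components, 15 neighbours (each cell itself included) and Leiden resolution 1 (scanpy 1.11.5, leidenalg 0.10.2), without rule genes. Of 31053 feature IDs, 31011 matched the GENCODE vM21 annotation. The ratio and its interval were tested on simulated counts. Python 3.11.15, numpy 2.4.6, scipy 1.17.1, pandas 2.3.3 and matplotlib 3.10.9 were used.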

Additional observations from a re-analysis of the deposited data

Results flagged for a closer look

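Rnd2, Pcp4, Plekhf2 and Rprm stood on the other side in the P2 library, where the cells that met the same rule were set against the other P2 Neurod2 or Neurod6 cells. Rnd2, higher at E18, had a log2 ratio of -0.35 (-0.54 to -0.16) at P2, with 215 CPM in the cells that met the rule and 274 CPM in the others. Pcp4, also higher at E18, had one of -0.35 (-0.48 to -0.23), with 489.7 and 625 CPM. Plekhf2, higher at E18, had one of -0.47 (-0.86 to -0.10). Rprm, lower at E18, had one of 0.82 (0.46 to 1.18), with 81.1 and 46.0 CPM. The P2 comparison cells held 82 Eomes-positive cells among 147, where the E18 ones held 115 among 1628. Against P2 layer-marked neurons the ratios were 0.25 (-0.03 to 0.54) for Rnd2, 0.15 (-0.03 to 0.33) for Pcp4, 0.14 (-0.42 to 0.71) for Plekhf2 and 1.05 (0.49 to 1.64) for Rprm. The differences between the ages were not tested, and with 1 library each, age, dissection, mouse line and library cannot be told apart.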

How the results depend on the processing

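The share of newborn neurons among Neurod2 or Neurod6 cells, 18.8%, followed the marker limit: it was 24.5% with a marker sum of 3 or more and 10.5% with 6 or more. It was 9.67% without Sema3c, 11.1% without Unc5d and 16.65% without Sstr2 in the sum. With the rule applied after thinning to 3000 UMIs it was 10.9%, and 175 of the 192 cells found were also newborn neurons without thinning. The counts of 107 higher and 154 lower genes were 219 and 318 with a limit of 20 CPM, 677 and 1240 with 10 UMIs over both groups and no CPM limit, and 33 and 74 in cells of 3000 to 8000 UMIs, chosen after seeing the data. The number of genes tested changed with these limits, so the counts are not shares of 1 set, and 677 and 1240 were of 11384 genes. Median-of-ratios scaling gave 69 higher genes. The EYFP share at P2 was 81.7% with 2 or more EYFP UMIs. The log2 ratio of Calb2 turned to -0.051 without Sema3c in the sum. Of 360 values of the named genes under alternatives, 277 stayed within their interval, 82 moved beyond it on the same side and 1 reversed. Of 339 list medians 331 stayed within a range from the median of the members' lower bounds to the median of their upper bounds. That range is no interval of the list median and can be wide, as for inhibitory neuron markers (-1.84 to 1.85). Staying within it therefore does not show that a median is stable, and 30 values of 8 lists had the other sign. Leaving out cells with markers of other types, 3 newborn neurons among 23 cells, gave 110 and 157 genes. No paired analysis was possible because each age had 1 library. Depth limits the genes near 0 in newborn neurons, where a few UMIs set the ratio, and free RNA was not modelled.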
